A study of Drosophila melanogaster with 6 samples.

Results

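The genes described here make selenocysteine, carry it to the ribosome or encode proteins that contain it, and they were followed in Drosophila melanogaster S2R+ cells, an established line from late embryos. The rule named 6 genes, SecS, eEFSec, SelD, Sps2, BthD and SelG, chosen by the measured level of SecS, which was lower in the libraries labelled dsFib, and by a role in selenocysteine use. Rows of that name were found for 5 of the 6 among the 23932 genes of each table. SelD has no row under that name and was skipped, but the RefSeq gene table gives SelD as a synonym of Sps1, which has a row, so Sps1 is described beside the 5 and is not counted with them. All 5, and Sps1, passed the filter on low counts and were among the 8302 genes tested.

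Total RNA was depleted of ribosomal RNA and sequenced with TGIRT-seq, in which a thermostable group II intron reverse transcriptase copies structured and small RNAs as well as mRNA. Per the labels, 3 libraries are from cells with double-stranded RNA against Fibrillarin (dsFib) and 3 from control cells with double-stranded RNA against the bacterial lacZ gene (dsLacZ). By these labels both groups shared the line and exposure to double-stranded RNA, and no other allele or agent separates them in the labels. Whether replicates came from cultures grown apart is not in the labels, so each p-value speaks only of the spread among these libraries, possibly a technical one.

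Selenocysteine has no synthetase of its own. Serine is first loaded on the selenocysteine tRNA by the seryl-tRNA synthetase, the kinase Pstk adds a phosphate, and SecS exchanges the phosphoserine for selenocysteine with selenophosphate as the donor, which selenophosphate synthetase makes. The loaded tRNA is taken to UGA codons by eEFSec, the elongation factor for selenocysteine, where Sbp2 marks the message by binding a stem-loop behind the coding sequence. Flies have few selenoproteins and remain viable without eEFSec, unlike mice, in which the selenocysteine tRNA is essential.

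Depth was between 11695250 and 15172052 counts per library. Fib, the targeted gene, went against its label, with 1312, 954.9 and 994.3 TMM-scaled CPM in the libraries labelled dsFib, against 213.9, 257.4 and 227.4 CPM in dsLacZ, so each direction below is that of the libraries so labelled. The library dsLacZ replicate 2 stood apart, with 18.3% of its counts in nuclear tRNA. That share was 13.4% to 15.3% in the libraries labelled dsFib, and 10.8% and 11.1% in dsLacZ replicates 1 and 3. Of 12 markers of the hemocyte type that S2R+ cells derive from, 9 were tested and 0 passed (DESeq2 0, limma-voom 0). At an unadjusted p of 0.05, which 15.9% of all tested genes passed, 3 of the 9 did. Their summed level was 1051 to 1205 CPM in the libraries labelled dsFib and 1253 to 1284 CPM in dsLacZ. Most of that sum is Pvr, with 646.7 ± 50.6 CPM in the libraries labelled dsFib and 788.8 ± 23.9 CPM in dsLacZ (SD, n = 3 each; log2 fold change -0.29, adjusted p = 0.239). By gene, 7 of the 9 lay above 0, among them Hml at 0.89 (SE 0.32, adjusted p = 0.224) and Col4a1 at 0.25 (SE 0.09, adjusted p = 0.243), and the median was 0.21. The part of these markers in the results below was not tested. The markers srp and Pxn were also well expressed, whereas He was at 0 in all libraries and NimC1 and Sr-CI had at most 10 counts. Of 10 markers of other cell types, elav and shg were tested, and the list summed to 45.1 to 50.5 CPM in the libraries labelled dsFib and 43.7 to 59.0 CPM in dsLacZ.

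SecS, the enzyme of the last step of selenocysteine synthesis, stood at 0.524 of its control level. It had 9.38, 10.1 and 10.6 CPM in the libraries labelled dsFib, against 16.4, 20.0 and 21.2 CPM in dsLacZ. The groups did not overlap, as for 12.1% of all tested genes in that direction. The lowest dsLacZ library, replicate 1, still lay well above the highest library labelled dsFib. The means were 10.0 ± 0.611 CPM in the libraries labelled dsFib and 19.2 ± 2.50 CPM in dsLacZ (SD, n = 3 each), from 106 to 153 counts per library labelled dsFib and 224 to 298 counts per dsLacZ library. The fold change of the edgeR model was 1.91-fold lower in the libraries labelled dsFib, or a log2 fold change of -0.93 (SE 0.16, 95% interval -1.29 to -0.57). In bulk RNA, fewer cells that express a gene and less of its RNA per cell cannot be told apart.

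These values of SecS are the ones for which the set was picked, so they are a description and not a test. The gene was 1 of 31 that were lower past an adjusted p of 0.05, a set of 0.373% of all tested genes, against 0.53% that were higher and 0.903% called in either direction. Among those 31 it ranked 21 by depth of fall, and 112 of the 8302 tested genes had a lower log2 fold change. Its adjusted p of 0.0383 (edgeR's quasi-likelihood test, Benjamini-Hochberg) was 0.0547 with limma-voom and 3.47e-04 with DESeq2, and lay between 3.47e-04 and 0.158 over the 10 other fits to all libraries. It was 0.231, 0.145 and 0.144 without dsFib replicates 1, 2 and 3 and 0.177 without dsLacZ replicate 3, and it stayed under the threshold without dsLacZ replicate 1 (0.0292) or 2 (0.0261). The log2 fold change itself lay between -1.02 and -0.84 in all 6 of these fits.

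The other 4 genes did not pass the test in this comparison. Of all 5, SecS alone was called by edgeR and by DESeq2, which called 0.903% and 3.85% of all tested genes. Its call is a description, since SecS was picked for this difference. Limma-voom called 0 of the 5 and 0.807% of all tested genes. The median log2 fold change was -0.06 over the 4 genes other than SecS, against -0.01 over all genes tested.

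BthD and SelG encode selenoproteins, the first of the SelH family and the second, also named G-rich, of the SelK family. BthD had 29.9, 28.2 and 29.3 CPM in the libraries labelled dsFib, against 31.9, 35.1 and 33.3 CPM in dsLacZ. The groups did not overlap, with the libraries labelled dsFib lower, as for 12.1% of all tested genes, but the difference was small. The log2 fold change was -0.20 (SE 0.10, 95% interval -0.43 to 0.04), with an unadjusted p of 0.0919 and an adjusted p of 0.399 in edgeR's quasi-likelihood test. BthD ends within tth, a gene on the opposite strand, over 36 bases, and tth itself had a log2 fold change of -0.19 (SE 0.09, adjusted p = 0.318). The strand setting of the counting is not given in the sources used here, so reads of that overlap may belong to either gene.

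SelG had 20.4, 23.5 and 22.3 CPM in the libraries labelled dsFib, against 19.0, 23.0 and 20.3 CPM in dsLacZ. The groups overlapped, and the log2 fold change was 0.09 (SE 0.13, 95% interval -0.21 to 0.39, adjusted p = 0.791). The interval leaves room for a level between 0.863 and 1.31 times that of dsLacZ, and a fall as deep as that of SecS lies outside it.

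Sps2 has a double place, since it makes the selenophosphate that SecS uses and is a selenoprotein itself. Its level was 22.7, 20.8 and 26.7 CPM in the libraries labelled dsFib, against 22.1, 21.9 and 22.2 CPM in dsLacZ. The libraries labelled dsFib spread around the control values, which were nearly equal. The log2 fold change was 0.09 (SE 0.13, 95% interval -0.22 to 0.39, adjusted p = 0.803), and without dsFib replicate 3, the highest library, it was -0.02. Sps1, the paralogue named SelD in the rule, has an arginine where Sps2 has selenocysteine and is not thought to supply selenophosphate. It had 22.7, 28.5 and 23.7 CPM in the libraries labelled dsFib, against 27.2, 25.3 and 20.0 CPM in dsLacZ, with overlapping groups. Its log2 fold change was 0.05 (SE 0.16, 95% interval -0.31 to 0.40, adjusted p = 0.922).

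eEFSec was the scarcest of the set. It had 2.65, 0.894 and 1.52 CPM in the libraries labelled dsFib, against 3.07, 1.18 and 1.63 CPM in dsLacZ, from 12 to 42 counts per library. Replicate 1 was the highest library in each group, and the groups overlapped throughout. Its log2 fold change of -0.23 had an SE of 0.54 and a 95% interval from -1.47 to 1.00 (adjusted p = 0.881). A change the size of that in SecS lies within this interval, given the few counts of eEFSec and their spread within each group. The direction for eEFSec turned without dsLacZ replicate 1 (0.26) and without dsFib replicate 2 (0.09).

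**Figure D1:**
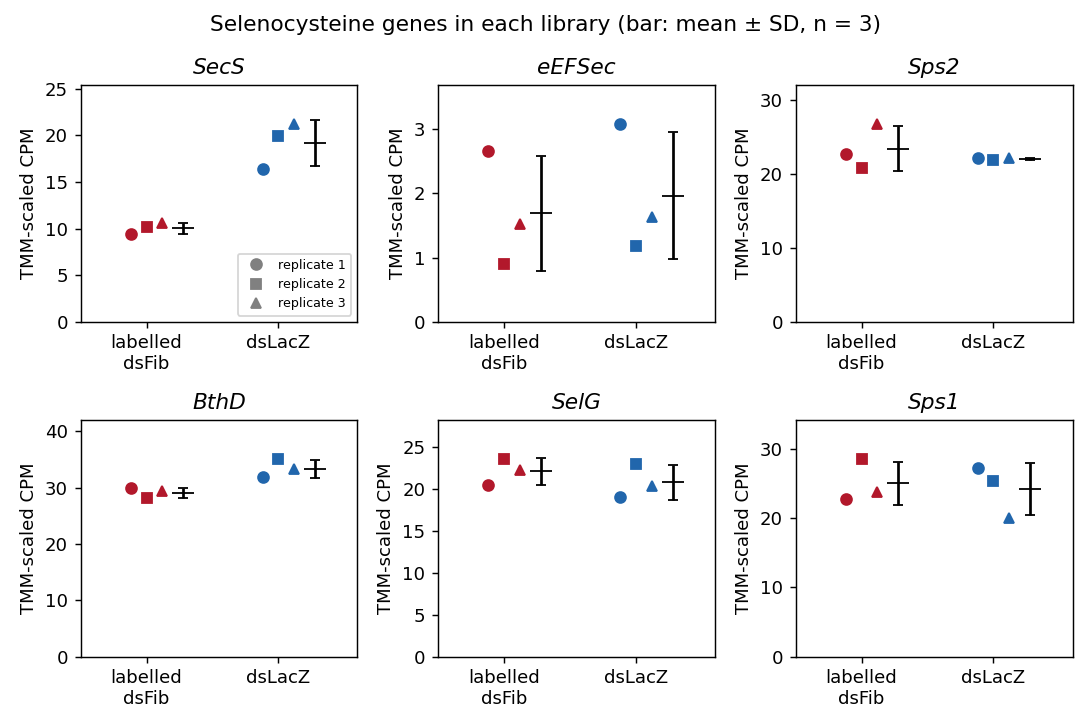
Level of SecS, eEFSec, Sps2, BthD, SelG and Sps1 in each library, as TMM-scaled CPM on axes that start at 0. Symbols mark the replicate number, red the libraries labelled dsFib and blue dsLacZ, and black bars give mean ± SD (n = 3). In SecS the 3 red points, at 9.38 to 10.6 CPM, lie below the blue points at 16.4 to 21.2 CPM. BthD separates by less, and the other 4 genes overlap.

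Levels of different genes can be compared only per length, for which the TPM deposited by the authors was used. The order was the same in all 6 libraries, with BthD highest, then SelG, Sps2, SecS and eEFSec. BthD averaged 11.7 ± 0.892 TPM in the libraries labelled dsFib and 14.5 ± 2.82 TPM in dsLacZ (SD, n = 3 each). SelG averaged 10.6 ± 1.72 TPM in the libraries labelled dsFib and 10.5 ± 1.59 TPM in dsLacZ, so the ranges of BthD and SelG overlapped within each group. Sps2 averaged 6.27 ± 0.379 TPM in the libraries labelled dsFib and 6.45 ± 1.57 TPM in dsLacZ, clear of SelG in both groups.

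SecS averaged 2.50 ± 0.292 TPM in the libraries labelled dsFib and 5.11 ± 1.03 TPM in dsLacZ. In dsLacZ its range, 3.99 to 5.999 TPM, overlapped that of Sps2, 4.73 to 7.82 TPM. The overlap rested on dsLacZ replicate 2, the lowest dsLacZ library for both genes. The dsLacZ replicates 1 and 3 had 5.34 and 5.999 TPM of SecS, below their 7.82 and 6.80 TPM of Sps2. In the libraries labelled dsFib the ranges did not overlap, with 2.25 to 2.82 TPM for SecS against 5.89 to 6.65 TPM for Sps2. SecS was picked for its lower level, so these values are a description. Within a library, the TPM of SecS was 38.2%, 45.0% and 36.6% of that of Sps2 in the libraries labelled dsFib, against 68.3%, 84.2% and 88.2% in dsLacZ. eEFSec averaged 0.403 ± 0.196 TPM in the libraries labelled dsFib and 0.554 ± 0.385 TPM in dsLacZ, well under SecS. Sps1 averaged 6.51 ± 1.48 TPM in the libraries labelled dsFib and 6.78 ± 2.12 TPM in dsLacZ, and overlapped Sps2 in both.

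Ratios of counts within a library do not depend on how libraries are scaled. For every 100 counts of BthD there were 31.4, 36.0 and 36.1 of SecS in the libraries labelled dsFib, against 51.4, 56.9 and 63.7 in dsLacZ. For every 100 counts of SelG there were 45.9, 43.0 and 47.5 of SecS in the libraries labelled dsFib, against 86.2, 86.9 and 104.2 in dsLacZ. Set against Sps2 and Sps1 the groups also did not overlap, while against eEFSec, with its few counts, they did. These ratios hold the values of SecS that picked the set and are given as a description.

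**Figure D2:**
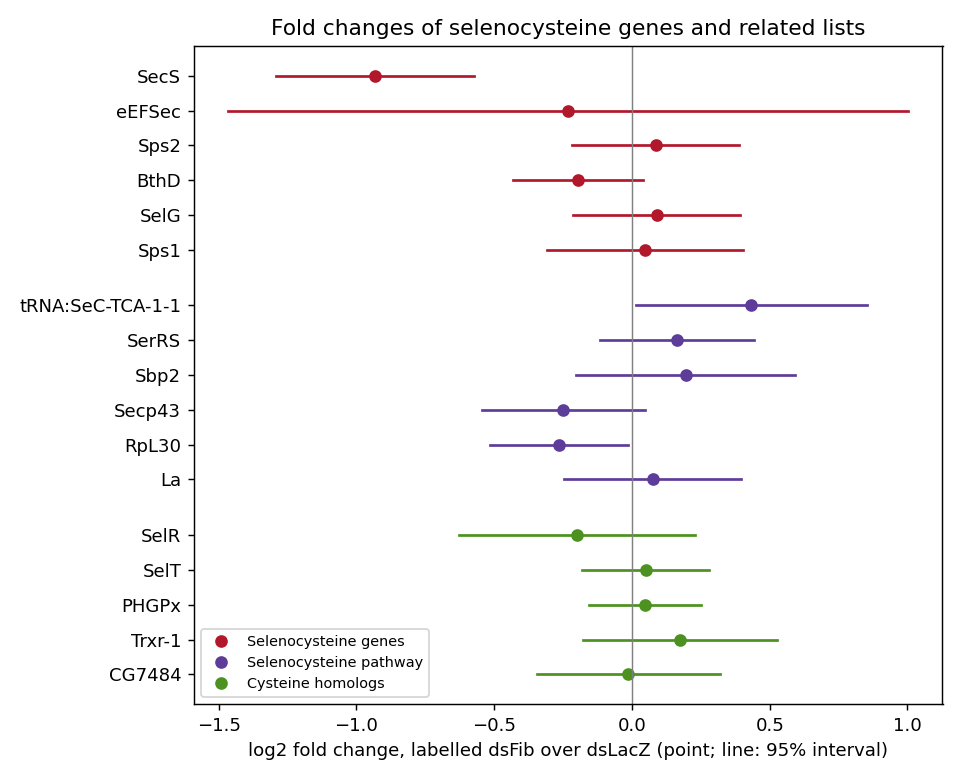
Log2 fold change, libraries labelled dsFib over dsLacZ, of the selenocysteine genes (red), other genes of the selenocysteine pathway (purple) and fly homologs of vertebrate selenoproteins that carry cysteine (green). Points are edgeR estimates and lines their 95% intervals. The point of SecS, at -0.93, is the lowest, and SecS was picked for this difference. The interval of eEFSec is the widest and holds the whole of that of SecS.

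The remaining steps of the pathway were read from a list of names that matched 7 genes, of which 6 were tested. None of the 6 was called (edgeR 0, DESeq2 0, limma-voom 0), and the median log2 fold change was 0.12. With no adjustment 1 passed 0.05 on the higher side, as did 7.67% of all tested genes, and 1 on the lower side, as did 8.26%. The selenocysteine tRNA itself, tRNA:SeC-TCA-1-1, had 774.2, 701.3 and 957.3 CPM in the libraries labelled dsFib, against 481.4, 752.3 and 569.2 CPM in dsLacZ. Its log2 fold change was 0.43 (SE 0.18, adjusted p = 0.299), and 0.63 with an adjusted p of 0.0379 without dsLacZ replicate 2, the library richest in tRNA. With each other library left out in turn it lay between 0.30 and 0.54, with adjusted p-values of 0.389 or more. Nuclear tRNA as a whole held 13.4% to 15.3% of counts in the libraries labelled dsFib, against 10.8% and 11.1% in dsLacZ replicates 1 and 3. Whether the selenocysteine tRNA differed apart from the other tRNAs was not tested. RpL30, a ribosomal protein that also binds selenoprotein messages in mammals, had a log2 fold change of -0.26 (SE 0.11, adjusted p = 0.288). Secp43, a partner of the selenocysteine tRNA, had 27.4, 29.0 and 29.1 CPM in the libraries labelled dsFib, against 28.7, 38.1 and 35.0 CPM in dsLacZ (log2 fold change -0.25, SE 0.13, adjusted p = 0.396).

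Of the pathway genes outside the rule for named genes, SerRS, the seryl-tRNA synthetase, had a log2 fold change of 0.16 (SE 0.12) and Sbp2 one of 0.20 (SE 0.17). Sbp2 averaged 16.1 ± 1.80 CPM in the libraries labelled dsFib and 14.0 ± 2.35 CPM in dsLacZ (SD, n = 3 each). La, which binds the ends of new RNA polymerase III transcripts such as tRNAs, had 0.08 (SE 0.14).

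Pstk, the kinase just before SecS in the pathway, was listed at 0 in all 6 libraries. This does not show that its message is missing. In the annotation Pstk has the same span, strand and exons as Tim9b (X, 19616663 to 19618537), a gene of mitochondrial protein import, and Tim9b was at 0 as well. Of 345 protein-coding genes of the tables that share an identical span and strand with another gene, 308, or 89.3%, were at 0 in all libraries, against 30.9% of all 13920 protein-coding genes. The step from seryl-tRNA to phosphoseryl-tRNA therefore cannot be read from these tables.

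Several vertebrate selenoproteins have fly relatives that use cysteine in place of selenocysteine. The list matched 6 such genes, of which 5 were tested and 0 called (DESeq2 0, limma-voom 0, and 0 at an unadjusted p of 0.05), with a median log2 fold change of 0.05. Trxr-1, a thioredoxin reductase, had 266.5, 295.4 and 232.8 CPM in the libraries labelled dsFib, against 256.9, 184.1 and 262.5 CPM in dsLacZ. Its log2 fold change was 0.18 (SE 0.15, adjusted p = 0.639). Without dsLacZ replicate 2 its log2 fold change was 0.028. SelR, the methionine sulfoxide reductase of the B type, had -0.20 (SE 0.19, adjusted p = 0.665), and -0.042 without dsFib replicate 1. PHGPx, a peroxidase of the glutathione peroxidase family, had 0.05 (SE 0.09, adjusted p = 0.845).

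The thioredoxin system, in which Trxr-1 and SelR also act, gave 11 tested genes of 15 found. None was called (edgeR 0, DESeq2 0, limma-voom 0), and the median log2 fold change was -0.07. With no adjustment 2 passed 0.05 on the higher side, against 7.67% of all tested genes, and 0 on the lower, against 8.26%. The smallest p belonged to Jafrac1, a cytosolic peroxiredoxin, with 39.3, 37.7 and 39.7 CPM in the libraries labelled dsFib, against 31.4, 29.1 and 27.1 CPM in dsLacZ. The groups did not overlap, as for 11% of all tested genes in that direction, and the log2 fold change of 0.41 (SE 0.11) had an adjusted p of 0.113. Jafrac2, a peroxiredoxin of the endoplasmic reticulum, had 0.26 (SE 0.10, adjusted p = 0.251) and Trx-2, a cytosolic thioredoxin, had 0.15 (SE 0.09, adjusted p = 0.445). Outside the rule, Prx2540-2 had -0.51 (SE 0.36, adjusted p = 0.544), and turned on single libraries, with -0.86 without dsLacZ replicate 2 (adjusted p = 0.0392) and -0.097 without dsLacZ replicate 1 (adjusted p = 0.912). It has a near-identical copy in Prx2540-1, so its counts are uncertain.

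**Figure D3:**
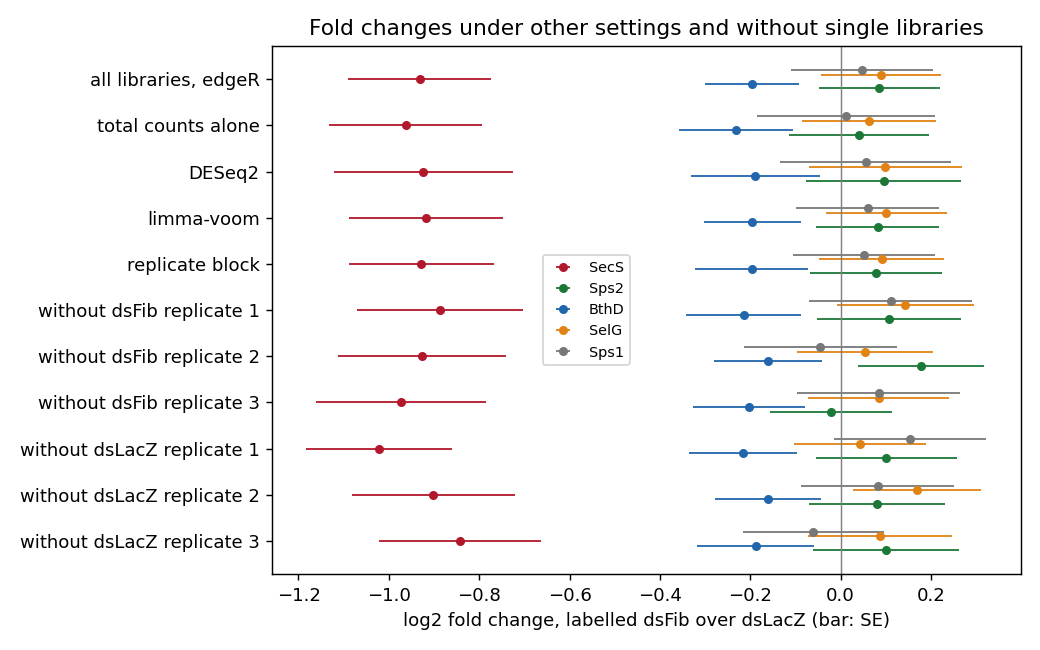
Log2 fold change of SecS, Sps2, BthD, SelG and Sps1, libraries labelled dsFib over dsLacZ, under other tests and scalings and without each library in turn; bars are SE. eEFSec, with an SE of 0.54, is left out for its width. SecS stays between -1.02 and -0.84, BthD below 0 in each setting drawn, and the rest near 0.

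In the genome these genes lie apart. SecS (FBgn0037347) is on 3R, 5601433 to 5603185, plus strand, in dm6 coordinates, with 1580 exonic bases. It overlaps no annotated gene, and no snoRNA is annotated within it. Its nearest neighbours are kra on one side, 296 bases away, and asl on the other, 50 bases away, both on the minus strand. asl, which encodes a centriole protein, had 40.5, 43.5 and 44.7 CPM in the libraries labelled dsFib, against 48.2, 52.0 and 54.1 CPM in dsLacZ. The groups did not overlap, as for 12.1% of all tested genes in that direction. The log2 fold change was -0.26 (SE 0.10, adjusted p = 0.239), smaller than that of SecS. kra, a host of box H/ACA snoRNAs, had 333.6, 362.3 and 219.8 CPM in the libraries labelled dsFib, against 436.2, 180.7 and 363.8 CPM in dsLacZ, with groups that overlapped.

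BthD (FBgn0030501; X, 13612131 to 13613228, plus strand) and SelG (FBgn0030350; X, 11887284 to 11888240, plus strand) are both on the X chromosome. Sps2 (FBgn0032224) is on 2L, 10342594 to 10344223, plus strand. eEFSec (FBgn0034627; 2R, 21384552 to 21386221) and Sps1 (FBgn0261270; 2R, 14268772 to 14270658) are on 2R, both on the minus strand. Apart from the overlap of BthD with tth, none of the 5 genes nor Sps1 overlaps another annotated gene. Of the other genes named, RpL30, SerRS, Trxr-1, PHGPx, Jafrac2, dah, Ude, elav, Pstk and Tim9b overlap a gene on the opposite strand, so their counts are less certain.

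Genes with a pattern over the 6 libraries like that of SecS were then sought. The candidates were 6607 tested genes with a mean of at least 5 CPM, and the genes of the set were left out. Likeness was the root-mean-square difference of log2(CPM + 1), centred on each gene's mean, and SecS itself departed from its own mean by 0.45 on this measure. The nearest was snoRNA:Me18S-A1061, a box C/D guide for 18S rRNA in Uhg5, at a distance of 0.095. It had 11.5, 10.7 and 11.2 CPM in the libraries labelled dsFib, against 16.3, 23.7 and 23.4 CPM in dsLacZ. Next came dah, which acts when the early embryo forms cells, at 0.11. Its levels were 25.5, 24.9 and 26.5 CPM in the libraries labelled dsFib, against 40.4, 41.7 and 45.3 CPM in dsLacZ.

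Ude, which degrades DNA that holds uracil, had a distance of 0.12, with 36.8, 34.4 and 44.4 CPM in the libraries labelled dsFib, against 67.1, 80.7 and 73.5 CPM in dsLacZ. lncRNA:CR43604, annotated within dachs, and snoRNA:291, annotated within Prp39, each lay at 0.12. Neither Sps1 nor a candidate from the other lists was among the 10 nearest. The other genes of the selenocysteine set were not candidates, so this says nothing of them. Like SecS, these genes were found by the very difference between the groups, and all of them share the same 6 libraries.

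**Figure D4:**
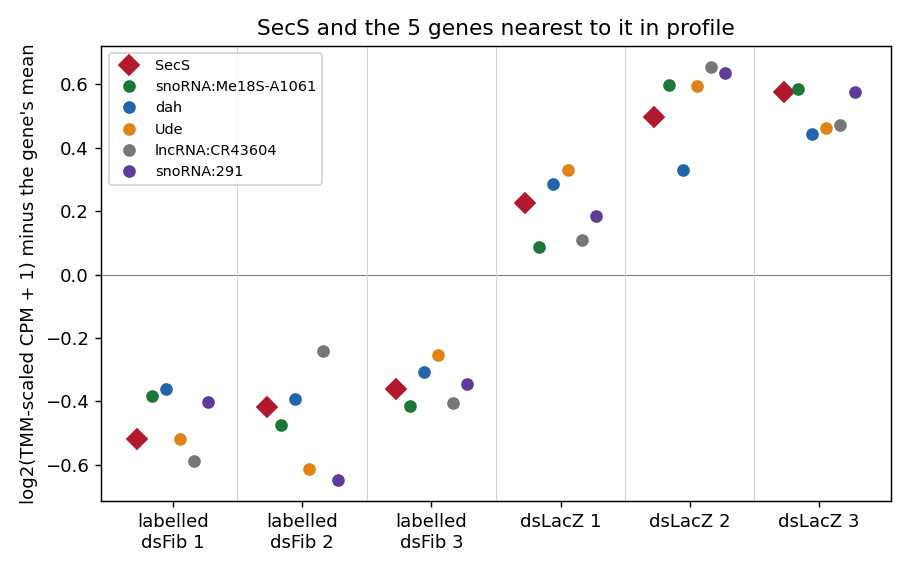
Centred log2(TMM-scaled CPM + 1) of SecS (diamonds) and the 5 genes nearest to it in each of the 6 libraries. All 6 genes lie below their mean in the 3 libraries labelled dsFib and above it in the 3 dsLacZ libraries, and dsLacZ replicate 1 is the lowest dsLacZ library for each.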

How the data were processed

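Per the file headers, each deposited table holds estimated counts, CPM and TPM by gene for a single library, the counts unscaled. The CPM deposited by the authors is scaled to the library's total, and the TPM deposited by the authors also to gene length. Tools named in the submitters' processing notes, with no roles, are cutadapt 3.4, STAR and Bowtie2, and the build is dm6. The table names name CoCo as the counter, and its annotation and strand setting are not stated there. Of whole counts from 1 to 100, 88.8% to 90.7% per library were even, and the cause was not tested.

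Counts were rounded, filtered with filterByExpr, scaled by TMM and fitted with edgeR 4.0.16 (R 4.3.3) by the quasi-likelihood test with the group as its term, Benjamini-Hochberg adjusted over all 8302 genes tested (threshold 0.05). The SE is the log2 fold change over the root of F, and intervals are 95%. CPM in the text is TMM-scaled. DESeq2 1.42.0 and limma-voom (limma 3.58.1) were run beside it, and the edgeR fit was tested on simulated data. There it recovered 15 of 66 changes of 1.5-fold, 44 of 64 of 2-fold and 61 of 66 of 4-fold. Of its 131 calls, 11 were false. The simulated counts were drawn for each gene alone, so no simulated library stood apart as dsLacZ replicate 2 did. Coordinates and overlaps are from the Ensembl annotation of BDGP6, in which 23851 of 23932 gene IDs were found and which has dm6 coordinates. No protein or genome sequence was used here, so the part of the naming rule on protein matches was not applied.

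Named genes are those of the set, the called genes and 3 smallest p of each list, the 5 genes of nearest profile, genes overlapping the set or next to SecS, and Fib. Sps1, SerRS, Sbp2, La, Pstk, Tim9b, Prx2540-1 and Prx2540-2 and the abundant or absent hemocyte markers were named after their values were seen. The set, lists and tests were chosen with earlier results of these data known. The labels do not say whether replicate numbers pair the libraries, and the main fit left them out.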

Additional observations from a re-analysis of the deposited data

How the results depend on the processing

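SecS was lower in the libraries labelled dsFib in all 16 other fits, with a log2 fold change from -0.96 to -0.92 where all libraries were kept and from -1.02 to -0.84 without one library. These fits reuse the difference for which SecS was picked, so they describe it and do not test it. The number of the 5 genes past the threshold, 1 with all libraries, was 0 with total counts alone, with limma-voom and with the replicate block, and 0 to 1 without one library. Over all genes it was 75, and 31 with total counts alone, 320 with DESeq2, 283 with no filter on low counts, 1 with the replicate block, and 2 to 310 without one library. The pathway and thioredoxin lists gave 0 to 1 without one library, and the cysteine homologs 0 throughout. Without one library the log2 fold change spanned 0 for Sps1 (-0.061 to 0.15), Sps2 (-0.021 to 0.18), eEFSec (-0.69 to 0.26), kra (-0.39 to 0.18) and shg (-0.29 to 0.13). The cause of these shifts was not tested.

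Deviations from the group mean had correlations of -0.05, -0.30 and -0.15 between same-numbered libraries, for numbers 1, 2 and 3. Centred in groups of 3, such deviations cannot settle whether the numbers pair the libraries. Which of the 2 fits, with or without the block, suits the design was therefore not settled. Halving the counts, chosen after seeing the data, gave 94 genes in all and -0.92 for SecS. The libraries hold 12 to 42 counts of eEFSec each, which limits what can be said of it.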
